A study of Mus musculus with 9 samples.

Results

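The genes described here encode enzymes and core subunits listed with the MLL and SETD1 groups, most of which serve methylation of lysine 4 of histone H3 (H3K4). They were chosen by name as the rows of the count table called Kmt2a, Kmt2b, Kmt2c, Kmt2d, Kmt2e, Setd1a, Setd1b, Ash1l, Ash2l and Wdr5. All 10 were found among the 55414 genes listed, and all 10 passed the filter on low counts. Their polyadenylated RNA was measured by RNA sequencing in round spermatids (RS), the haploid cells that follow meiosis in the testis. The mice were WT by genotype. Per the study's methods, their germ cells carried a tdTomato reporter that Stra8-iCre had switched on, in a C57Bl/6 background, and RS cells were sorted by the reporter's fluorescence and by light scatter. All cells were cultured for 24 h in MEM Eagle medium that contained lactate, pyruvate, glutamine and dialyzed serum, with 0.15% DMSO in every group. Vehicle cells received no compound, and per the study's methods untreated cells were given the same solvent volumes. Oxamate cells received 24 mM oxamate, an inhibitor of lactate dehydrogenase. The last group received 24 mM oxamate with 0.3 mM octyl-L2HG, a cell-permeable ester of L-2-hydroxyglutarate (L-2HG), and is called "both compounds" here. Each group held 3 libraries, with the numbers 1 to 3 in vehicle, 4 to 6 in oxamate and 7 to 9 in the group with both compounds. The comparison of oxamate with vehicle asks what inhibition of lactate dehydrogenase did to the RNA. The comparison of both compounds with oxamate asks what returning L-2HG did. The study states that the cells were incubated in triplicate. Its methods describe germ cell isolation from prepubertal and adult mice. Which of these gave the libraries, and whether the libraries came from separate animals, is not given in the sources used here, so p-values measure the spread between these libraries, which may be technical.

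Methylation of H3K4 marks active parts of the genome, with the trimethylated form at promoters and the monomethylated form at enhancers. In the enzymes of these groups, a SET domain transfers methyl groups from S-adenosylmethionine, and a shared module of WDR5, RBBP5, ASH2L and DPY30 is needed for full activity. SETD1A and SETD1B, with CXXC1 and WDR82, deposit much of the trimethyl mark. KMT2A and KMT2B (MLL1 and MLL2) act with menin at selected promoters, and KMT2C and KMT2D (MLL3 and MLL4) act mainly at enhancers. KMT2E (MLL5) has a SET domain but is not known to methylate H3K4 and binds the trimethyl mark through its PHD finger. ASH1L is best known as a methyltransferase of lysine 36. ASH2L and WDR5 are subunits without a SET domain. The 10 genes therefore differ in biochemistry, and their values are given by role. In spermatids, most histones are later replaced by protamines.

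The libraries held between 32339533 and 39888396 counted reads. Their values differed by more than sampling noise within each group, with a chi-square per gene that was lowest for oxamate 5 against 6, at 1.98, and highest for oxamate 4 against 6, at 20.7. Oxamate library 4 and vehicle library 1 stood apart from the rest of their groups, at 0.69 and 0.43 on the main component of the variation within groups, against values between -0.41 and 0.05 in the other 7 libraries. All 10 markers of round spermatids had counts, and their summed level was 2427 to 2476 CPM (counts scaled to the library's total) in vehicle, 2283 to 2363 CPM in oxamate and 2145 to 2160 CPM with both compounds. Within this list Tnp1, Tnp2, Prm1 and Prm2, which encode the transition proteins and protamines of chromatin condensation, were called lower in all 3 comparisons, at 0.585-fold to 0.679-fold for both compounds against vehicle. Of the other markers, Catsper1 was called higher with oxamate than in vehicle, and with both compounds against vehicle Acrv1 and Acr were higher and Tssk1 lower. The 3 markers of elongating spermatids summed to 2293 to 2306, 2185 to 2274 and 1848 to 1921 CPM in the same order, and the 7 spermatocyte markers to 279 to 345, 271 to 298 and 304 to 318 CPM. The libraries with both compounds thus lay above oxamate in the summed level of the spermatocyte list. Only Sycp2 was called higher with both compounds than with oxamate, by 0.37 on the log2 scale (adjusted p = 0.00774 by edgeR). Against vehicle only Piwil2 was called higher, by 0.29 (adjusted p = 0.0255). Sycp3, Hormad1, Spo11 and Dmc1 had values below oxamate with both compounds, and none was called. The list's median log2 fold change was -0.02 against oxamate and -0.04 against vehicle. Of the 3 markers of elongating spermatids, 2 were called lower with both compounds than with oxamate and 3 lower than in vehicle. The 6 spermatogonium markers summed to 6.77 to 7.43 CPM in vehicle, 7.79 to 7.94 CPM in oxamate and 6.94 to 7.45 CPM with both compounds. The 5 myoid cell markers summed to 2.57 to 2.72, 2.83 to 3.18 and 2.23 to 2.60 CPM in the same order. In the sums of both lists the oxamate libraries lay above the other 6, which holds for Setd1a as well. Single markers went both ways, and none of either list was called in a comparison of 2 groups. With oxamate, Kit, Stra8, Gfra1, Acta2, Des and Tagln had values above vehicle. Zbtb16, Dmrt1, Uchl1, Myh11 and Col1a1 had values below vehicle. The 6 Sertoli cell markers summed to 0.109 to 0.205, 0.123 to 0.212 and 0.0618 to 0.0886 CPM, the 5 Leydig cell markers to 0.819 to 1.08, 0.555 to 0.767 and 0.866 to 1.09 CPM, and the 5 macrophage markers, with Lyz2 at 0, to 3.64 to 4.54, 3.12 to 3.48 and 3.07 to 3.80 CPM. The part of these shifts between stages and cell types in the results was not tested. In bulk RNA, fewer cells of a type and less RNA per cell cannot be told apart.

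The 10 genes were present at very unequal levels. Levels are given as normalized counts, which are counted reads divided by the library's size factor, and between genes as normalized counts per kb of the longest coding transcript. In vehicle, Ash2l stood far above the rest at 3376 ± 78.9 normalized counts per kb (SD, n = 3), at the 95.6th percentile of the 25027 genes with a known length. Wdr5 followed at 287 ± 11.1 and Setd1b at 211 ± 18.4. Setd1b was thus the catalytic gene with the highest level per kb, above its paralogue Setd1a at 19.0 ± 1.71. The level of Setd1a may be understated, since 51.8% of its exon length is shared with Gm49388, a gene listed at 0 reads, and reads there could have gone uncounted. Kmt2e lay at 87.3 ± 13.7, Kmt2b at 81.8 ± 6.17 and Ash1l at 57.1 ± 6.71, and the ranges of Kmt2e and Kmt2b overlapped. Kmt2c, at 14.7 ± 1.78, and Kmt2d, at 13.9 ± 0.362, overlapped as well. Kmt2a was the lowest at 2.16 ± 0.683, at the 17.5th percentile, with between 18 and 49 reads in each library. The libraries of the other neighbours in this order did not overlap.

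**Figure D1:**
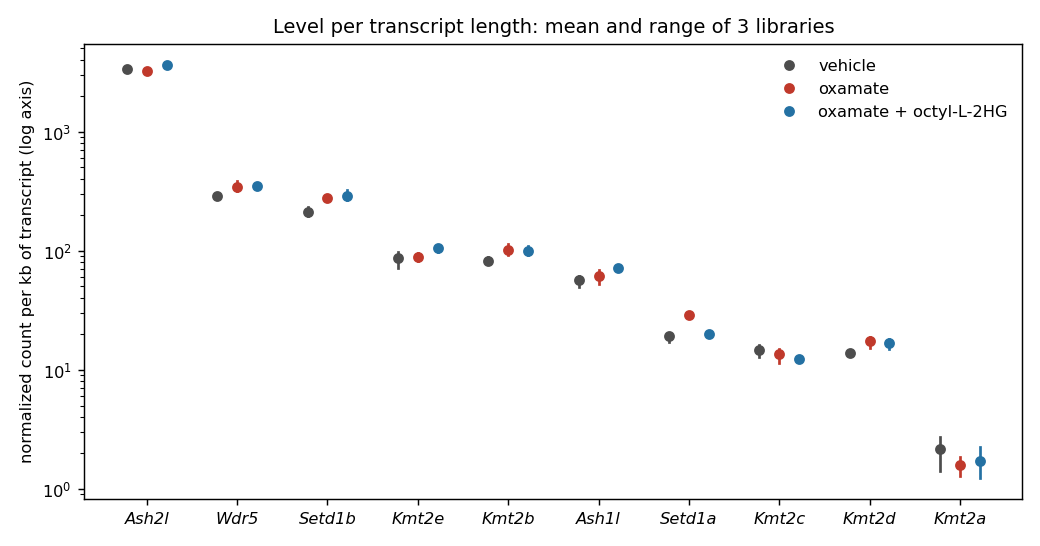
Normalized counts per kb of transcript on a log axis for each of the 10 genes, ordered by their vehicle level; points are means of 3 libraries and lines run from the lowest to the highest library. Ash2l sits at the top, with 3376 in vehicle, and Kmt2a at the bottom, with 2.16.

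Setd1a was the member that moved in both directions. The vehicle libraries held 111, 133 and 126 normalized counts of Setd1a, the oxamate libraries 178, 191 and 195, and the libraries with both compounds 121, 133 and 137. All 3 oxamate libraries lay above the other 6, and vehicle overlapped with both compounds. Setd1a rose by 0.61 on the log2 scale with oxamate (SE 0.11, 95% interval 0.38 to 0.85, 1.53-fold, adjusted p = 0.00179 in the quasi-likelihood test of edgeR with Benjamini-Hochberg adjustment over the 25128 genes tested). It fell by 0.55 when octyl-L-2HG was added (SE 0.11, interval -0.79 to -0.31, 0.682-fold, adjusted p = 0.00289). Between both compounds and vehicle the difference was 0.06, with an interval from -0.19 to 0.31 and an adjusted p of 0.798. Over the 18 alternative analyses the rise ranged from 0.48 to 0.67 and the difference of both compounds from oxamate from -0.60 to -0.50, with an adjusted p of at most 0.0129 and 0.0271. Without oxamate library 4 the values were 0.65 and -0.58. Of the 10 members, 1 was called both as raised by oxamate and as lowered by the addition of octyl-L-2HG, against 1.09% of all genes tested. Both comparisons use the same 3 oxamate libraries, with opposite sign, so the fall is not independent of the rise. The study places Setd1a and Kmt2b among genes that rose with oxamate in these libraries and that octyl-L-2HG brought back. Their direction is therefore not independent evidence. For Kmt2b no such return was detected here, at -0.04 between both compounds and oxamate (interval -0.22 to 0.15).

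Setd1b, the paralogue of Setd1a, was raised in both treated groups. Vehicle libraries held 1821, 1732 and 2049 normalized counts, oxamate libraries 2610, 2403 and 2401, and libraries with both compounds 2851, 2484 and 2343. All 6 treated libraries lay above the 3 vehicle libraries, and the treated groups overlapped. The log2 fold change was 0.41 with oxamate (SE 0.08, interval 0.24 to 0.58, 1.33-fold, adjusted p = 0.00300) and 0.43 with both compounds (SE 0.08, interval 0.27 to 0.60, 1.35-fold, adjusted p = 0.000523), both against vehicle. These comparisons share the vehicle libraries. Both calls were kept in all 18 alternatives, over ranges of 0.27 to 0.47 and 0.32 to 0.52. Between both compounds and oxamate the difference was 0.02, with an interval from -0.14 to 0.19 and an adjusted p of 0.905, so a fall of the size seen for Setd1a lay outside this interval.

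**Figure D2:**
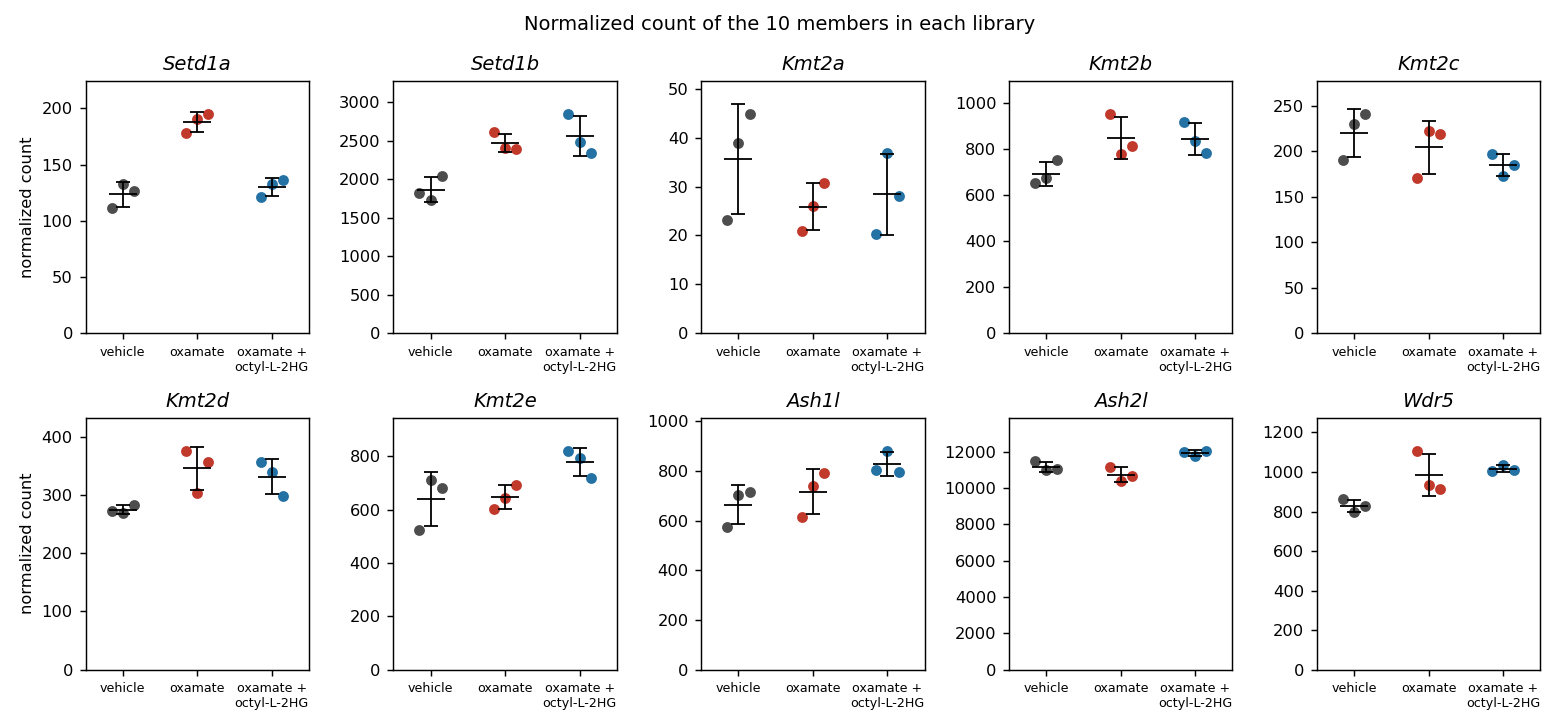
Normalized count of each of the 10 genes in every library, by group, on axes that start at 0; points are libraries, the horizontal line is the mean of 3 and the bars are the SD. The oxamate libraries of Setd1a stand above the other 6, while those of Setd1b share the level of the libraries with both compounds.

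The responses of the 2 SETD1 genes were compared through their read ratio within a library, which no scaling between libraries can change. The shares of Setd1a may be too low in every library, because of the exon bases it shares with Gm49388. Setd1a took 5.75%, 7.11% and 5.81% of the reads of the pair in the vehicle libraries, 6.39%, 7.35% and 7.52% in the oxamate libraries, and 4.08%, 5.07% and 5.51% with both compounds. Every library with both compounds lay below all 6 others. The log2 ratio of Setd1a to Setd1b differed by -0.58 between both compounds and oxamate and by -0.37 between both compounds and vehicle, each with p = 0.1 by an exact two-sided permutation test, the smallest p that 3 against 3 libraries allow. The oxamate libraries overlapped with vehicle, with a difference of 0.20 and an exact p of 0.2. After Benjamini-Hochberg adjustment over the 9 ratio tests made, the lowest value was 0.3, so none passed a threshold of 0.05.

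The 250 bases before the annotated start of transcription are printed for Setd1a, the member that rose and fell, and for Wdr5, a member without that fall, to show how their composition differs. They are RefSeq sequences on GRCm38.p6, which is not the build of the counts, at chr7:127777139-127777388 (plus strand) for Setd1a and chr2:27514897-27515146 (plus strand) for Wdr5. Capitals mark CpG dinucleotides, the sites of DNA methylation.
Setd1a: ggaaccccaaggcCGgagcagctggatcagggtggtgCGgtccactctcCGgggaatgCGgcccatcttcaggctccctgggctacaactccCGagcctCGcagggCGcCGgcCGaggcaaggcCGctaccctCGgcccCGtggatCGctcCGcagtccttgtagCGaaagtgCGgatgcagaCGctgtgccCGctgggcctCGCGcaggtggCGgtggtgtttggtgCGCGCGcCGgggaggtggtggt
Wdr5: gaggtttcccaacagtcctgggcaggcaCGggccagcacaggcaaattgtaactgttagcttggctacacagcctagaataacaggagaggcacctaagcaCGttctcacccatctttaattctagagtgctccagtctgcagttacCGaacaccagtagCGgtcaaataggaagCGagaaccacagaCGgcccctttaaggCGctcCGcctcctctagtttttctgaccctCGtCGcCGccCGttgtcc
The Setd1a window held 25 CpG dinucleotides and the Wdr5 window 12, against a median of 6 over the 32851 promoter windows of this length. Windows were also found for Kmt2a with 29, Kmt2c with 48 and Kmt2d with 26 CpG dinucleotides. Kmt2b, Kmt2e, Setd1b, Ash1l and Ash2l were not matched. The motif GGGCGG, known as the GC box, was searched on both strands. It matched 4 times in Kmt2a, 12 times in Kmt2c, 4 times in Kmt2d, 1 time in Wdr5 and 0 times in Setd1a, and 32.7% of all windows hold it. TGACG, the core of the cyclic AMP response element, matched in none of the 5 windows and in 17.8% of all windows, and TATAAA matched in none of the 5 and in 12.4% of all. CCAAT and CACGTG were absent from the 5 windows and present in 33.9% and 6.02% of all. These matches describe the letters of the windows only.

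Kmt2b and Kmt2a encode the paralogues MLL2 and MLL1. Kmt2b had 652, 675 and 752 normalized counts in vehicle, 955, 781 and 817 in oxamate, and 921, 835 and 784 with both compounds. All treated libraries lay above all vehicle libraries, and the treated groups overlapped. The difference of both compounds from vehicle passed the threshold, at 0.27 (SE 0.09, interval 0.08 to 0.45, adjusted p = 0.0444 by edgeR's quasi-likelihood test), while that of oxamate from vehicle did not, at 0.30 (interval 0.11 to 0.49, adjusted p = 0.0551). Whether these 2 differences are unequal is given by the comparison of the treated groups, at -0.04 with an interval from -0.22 to 0.15. The call with both compounds was made in 10 of 18 alternatives. It was lost without vehicle libraries 1 or 2, at 0.23 and 0.25, and without libraries 7, 8 or 9 of both compounds, at 0.21, 0.28 and 0.32. The oxamate difference was called without oxamate library 5, at 0.36, and was 0.20 (adjusted p = 0.109) without oxamate library 4.

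Kmt2a, at 23.1, 38.9 and 44.9 normalized counts in vehicle, 21.0, 26.0 and 30.7 in oxamate and 20.2, 36.9 and 28.1 with both compounds, overlapped among all groups. Its differences from vehicle were -0.46 (interval -1.0 to 0.08) and -0.35 (interval -0.88 to 0.19), with adjusted p-values of 0.387 and 0.407. No change was detectable at this depth. Kmt2a took 3.42% to 5.63% of the reads of Kmt2a and Kmt2b together in vehicle, 2.15% to 3.62% in oxamate and 2.15% to 4.23% with both compounds, and these ranges overlapped. The exact permutation p for their log2 ratio was 0.2 for oxamate and 0.3 for both compounds, each against vehicle.

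Kmt2d and Kmt2c encode the enhancer enzymes MLL4 and MLL3. Kmt2d had 273, 269 and 283 normalized counts in vehicle, 376, 304 and 356 in oxamate, and 356, 340 and 298 with both compounds. The vehicle libraries lay below all treated libraries. The log2 fold change of Kmt2d with oxamate was 0.33 (SE 0.10, interval 0.13 to 0.54), with an adjusted p of 0.0554, and with both compounds 0.24 (interval 0.03 to 0.45), with an adjusted p of 0.103, so neither passed. Across the 3 groups together Kmt2d was called, with an adjusted p of 0.0471. Without oxamate library 5 the oxamate difference of Kmt2d was called, at 0.42, while without oxamate library 4 it was 0.26 (adjusted p = 0.0995), and without oxamate library 4 that of both compounds from vehicle, at 0.24.

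Kmt2c had 190, 229 and 241 normalized counts in vehicle, 171, 222 and 219 in oxamate, and 197, 173 and 184 with both compounds. The groups overlapped. Its differences from vehicle were -0.11 (interval -0.35 to 0.14, adjusted p = 0.716) and -0.27 (interval -0.52 to -0.02, adjusted p = 0.127), and the second was called without vehicle library 1, at -0.37, or without oxamate library 4, at -0.27, and was -0.19 (adjusted p = 0.395) without vehicle library 3. Kmt2c took 41.1%, 46.0% and 46.0% of the reads of the pair in vehicle, 31.2%, 42.2% and 38.1% in oxamate, and 35.6%, 33.7% and 38.3% with both compounds. In this share, vehicle lay wholly above the libraries that received both compounds. The log2 ratio of Kmt2c to Kmt2d differed by -0.51 between both compounds and vehicle, with an exact permutation p of 0.1, the smallest possible, and by -0.44 between oxamate and vehicle, with an exact p of 0.2.

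**Figure D3:**
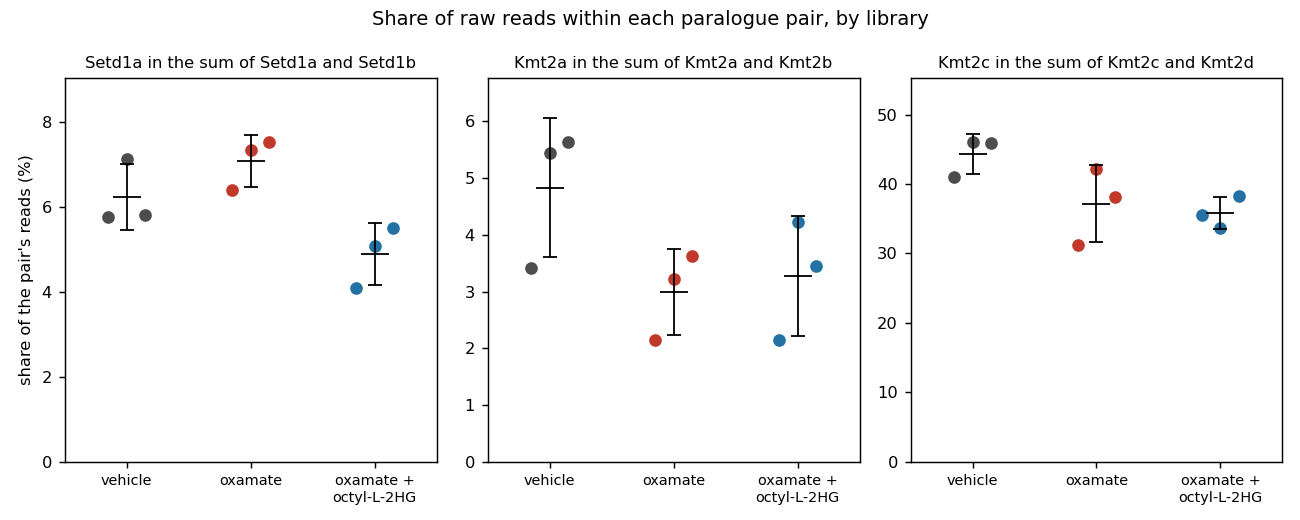
Share of raw reads, in percent, taken by the first gene of each of the 3 paralogue pairs, by library and group; points are libraries, the horizontal line is the mean of 3 and the bars are the SD. The share of Setd1a with both compounds, 4.08% to 5.51%, lies below the other 6 libraries.

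Wdr5 and Ash2l encode subunits shared by these complexes. Wdr5, which binds the SET-domain enzymes and holds the module together, had 862, 798 and 826 normalized counts in vehicle, 1108, 933 and 914 in oxamate, and 1005, 1035 and 1011 with both compounds. All treated libraries lay above the vehicle libraries. Wdr5 was higher with both compounds than in vehicle by 0.27 (SE 0.08, interval 0.10 to 0.44, adjusted p = 0.0228), and the difference of oxamate from vehicle was 0.25 (interval 0.08 to 0.43, adjusted p = 0.0794). Between the treated groups it was 0.02 (interval -0.15 to 0.19). The call with both compounds was made in 12 of 18 alternatives and was lost without vehicle libraries 2 or 3, at 0.25 and 0.28, and without libraries 7, 8 or 9, at 0.29, 0.26 and 0.27. The oxamate difference ranged from 0.16 without oxamate library 4 (adjusted p = 0.188) to 0.31 without oxamate library 6, where it was called.

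Ash2l, the most abundant member per kb, had 11460, 10967 and 11064 normalized counts in vehicle, 11155, 10380 and 10678 in oxamate, and 11983, 11748 and 12054 with both compounds. The libraries with both compounds lay above all others, while oxamate and vehicle overlapped. The distances were small. Ash2l differed by 0.13 between both compounds and oxamate (interval 0.00 to 0.25, adjusted p = 0.210), by 0.07 between both compounds and vehicle (interval -0.05 to 0.20) and by -0.05 between oxamate and vehicle (interval -0.18 to 0.07). Without oxamate library 4 the first of these was called, at 0.16. The other shared subunits were not called either. Rbbp5 differed from vehicle by 0.20 with oxamate and 0.27 with both compounds, and Dpy30 by 0.08 and -0.03.

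Kmt2e and Ash1l, the members whose proteins are not typical H3K4 methyltransferases, had their highest mean levels with both compounds. The same holds for Setd1b, Ash2l and Wdr5. Kmt2e had 524, 712 and 680 normalized counts in vehicle, 602, 644 and 693 in oxamate, and 821, 792 and 719 with both compounds. Oxamate and vehicle overlapped, and the libraries with both compounds lay above all others. Kmt2e differed by 0.24 between both compounds and oxamate (interval 0.03 to 0.45, adjusted p = 0.133), by 0.26 between both compounds and vehicle (interval 0.06 to 0.47, adjusted p = 0.0731) and by 0.02 between oxamate and vehicle (interval -0.19 to 0.23). The second was called without vehicle library 2, at 0.35, or without oxamate library 4, at 0.26, and was 0.14 (adjusted p = 0.361) without vehicle library 1.

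Ash1l had 575, 703 and 716 normalized counts in vehicle, 616, 738 and 794 in oxamate, and 803, 882 and 794 with both compounds. The lowest library with both compounds, at 793.8, and the highest oxamate library, at 793.7, were nearly equal. Ash1l was higher with both compounds than in vehicle by 0.29 (SE 0.10, interval 0.09 to 0.49, adjusted p = 0.0393). It differed from vehicle by 0.11 with oxamate (interval -0.09 to 0.31, adjusted p = 0.625) and between the treated groups by 0.18 (interval -0.02 to 0.38, adjusted p = 0.271), which became 0.09 without oxamate library 4. The call was made in 12 of 18 alternatives and was lost without vehicle library 1, at 0.20, and without libraries 7, 8 or 9, at 0.32, 0.25 and 0.32.

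**Figure D4:**
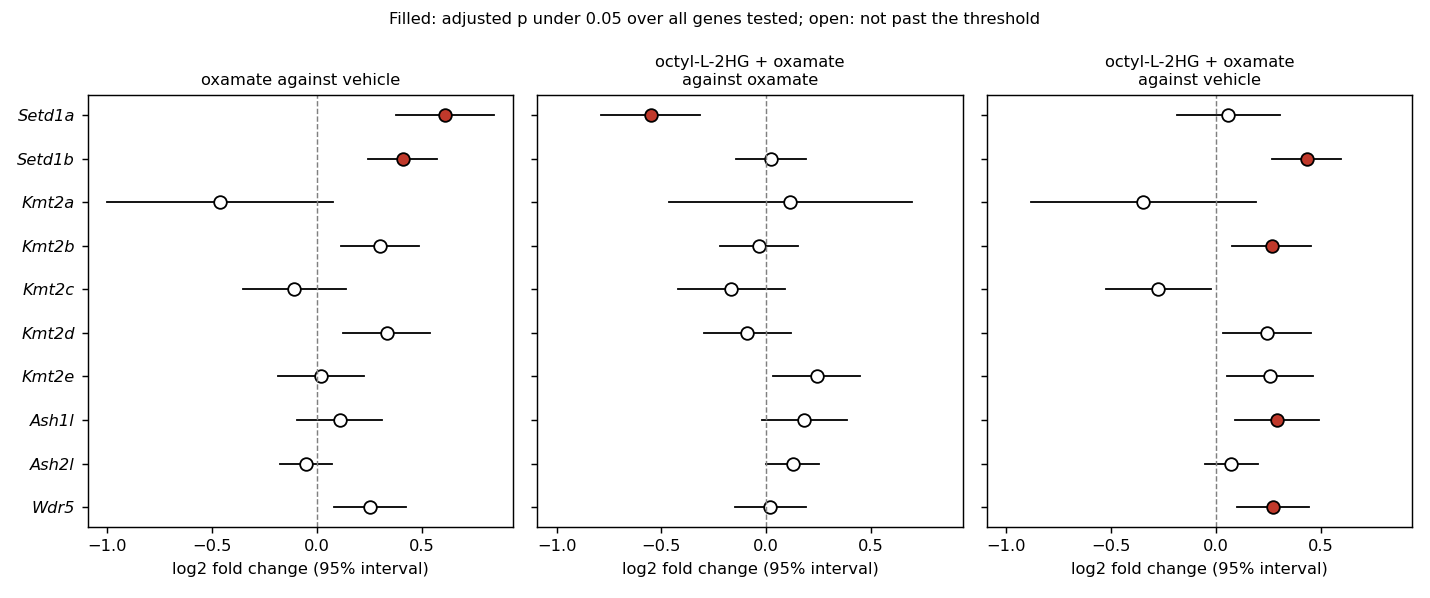
Log2 fold change of each of the 10 genes in the 3 comparisons with its 95% interval; filled points passed an adjusted p of 0.05 over all genes tested. Setd1a is filled on the right for oxamate against vehicle and on the left for both compounds against oxamate, and 4 genes are filled for both compounds against vehicle.

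Counted together, 2 of the 10 members were higher with oxamate than in vehicle and 0 were lower, where 3.97% of all genes tested were higher and 1.22% lower (5.19% in either direction). At an unadjusted p under 0.05 the members were 5 higher and 0 lower, against 10.2% and 7.12% of all genes, and DESeq2 called 3 higher and 0 lower, where it called 3.92% and 1.07% of all genes. Between both compounds and oxamate 0 members were higher and 1 was lower, where 3.18% of all genes were higher and 8.06% lower (11.2% in either direction). At an unadjusted p under 0.05 the members were 2 higher and 1 lower, against 8.5% and 15.1% of all genes, and DESeq2 called 0 higher and 1 lower, where it called 4.91% and 6.51% of all genes. Between both compounds and vehicle 4 members were higher and 0 lower, where 7.48% of all genes were higher and 10.6% lower (18% in either direction). At an unadjusted p under 0.05 the members were 6 higher and 1 lower, against 12.9% and 17.1%, and DESeq2 called 5 higher and 0 lower, where it called 8.49% and 8.04% of all genes. The last comparison shares its libraries with the others. With single libraries left out, 4 members were higher with oxamate than in vehicle without oxamate library 5, where 2.72% of all genes were. Without oxamate library 4, both compounds against oxamate gave 1 member higher and 1 lower, against 6.38% and 11.5% of all genes. Without the same library, both compounds against vehicle gave 6 higher and 1 lower, against 11.4% and 13.7% of all genes. The last comparison gave 1 higher without library 7, 8 or 9, where 4.73%, 4.86% and 5.6% of all genes were higher. Across the 3 groups together 5 members were called, Kmt2b, Kmt2d, Setd1a, Setd1b and Wdr5, against 19.8% of all genes. This count fell with total counts as the scaling and moved when single libraries were left out, as given in the last section.

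The oxamate libraries of 5 members lay wholly above vehicle, against 11.4% of all genes, and those of 0 members wholly below, against 9.95%. The libraries with both compounds lay wholly above oxamate for 3 members, Kmt2e, Ash1l and Ash2l, against 13.4% of all genes, and wholly below for 1, Setd1a, against 15.3%. They lay wholly above vehicle for 7 members, against 18% of all genes, and wholly below for 0, against 18.5%. The median log2 fold change of the 10 members was 0.18 for oxamate against vehicle, 0.02 for both compounds against oxamate and 0.25 for both compounds against vehicle. The medians over all genes tested were -0.01, -0.04 and -0.05. With the fit offset for transcript length and GC content, the members' medians were 0.09, 0.07 and 0.16. A log2 fold change above 0 was found for 7, 6 and 8 members in these comparisons, against 48%, 45.5% and 45% of all genes, and with total counts as the scaling Setd1b and Wdr5 lay below 0 in the second and Setd1a in the third.

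These shares over all genes take no account of transcript length, and the members are long. Their longest coding transcripts ran from 2.89 kb for Wdr5 to 19.8 kb for Kmt2d, and 8 of the 10 were above 5 kb. Among the 10696 genes whose normalized counts averaged 100 or more and whose length is known, the share called higher with oxamate was 2.73% under 2 kb, 9.22% from 2 to 5 kb, 15.1% from 5 to 10 kb and 14.5% from 10 kb. The shares for both compounds against vehicle were 5.07%, 18.7%, 28.9% and 28.6%. The median log2 fold changes with oxamate were -0.05, 0.03, 0.08 and 0.11 in the same classes, so long transcripts as a class sat above short ones. When the fit was offset for transcript length and GC content, Setd1a stayed called, at 0.48 with oxamate (adjusted p = 0.0122) and -0.53 for both compounds against oxamate (adjusted p = 0.00274). Setd1b stayed called as well, at 0.27 and 0.32 against vehicle, as did Wdr5 and Ash1l with both compounds, at 0.28 and 0.27. The call of Kmt2b was lost, at 0.15 (adjusted p = 0.133), and the oxamate differences of Kmt2b and Kmt2d became 0.15 and 0.18. Gained with this offset were Kmt2e, Ash1l and Ash2l for both compounds against oxamate, at 0.28, 0.23 and 0.18 (adjusted p = 0.0157, 0.0250 and 0.00828), and Kmt2e against vehicle, at 0.24 (adjusted p = 0.0346). Over all genes, the share called higher for both compounds against oxamate was 10% with the offset, against 3.18% without it. The part of transcript length in the members' values beyond this offset was not tested.

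**Figure D5:**
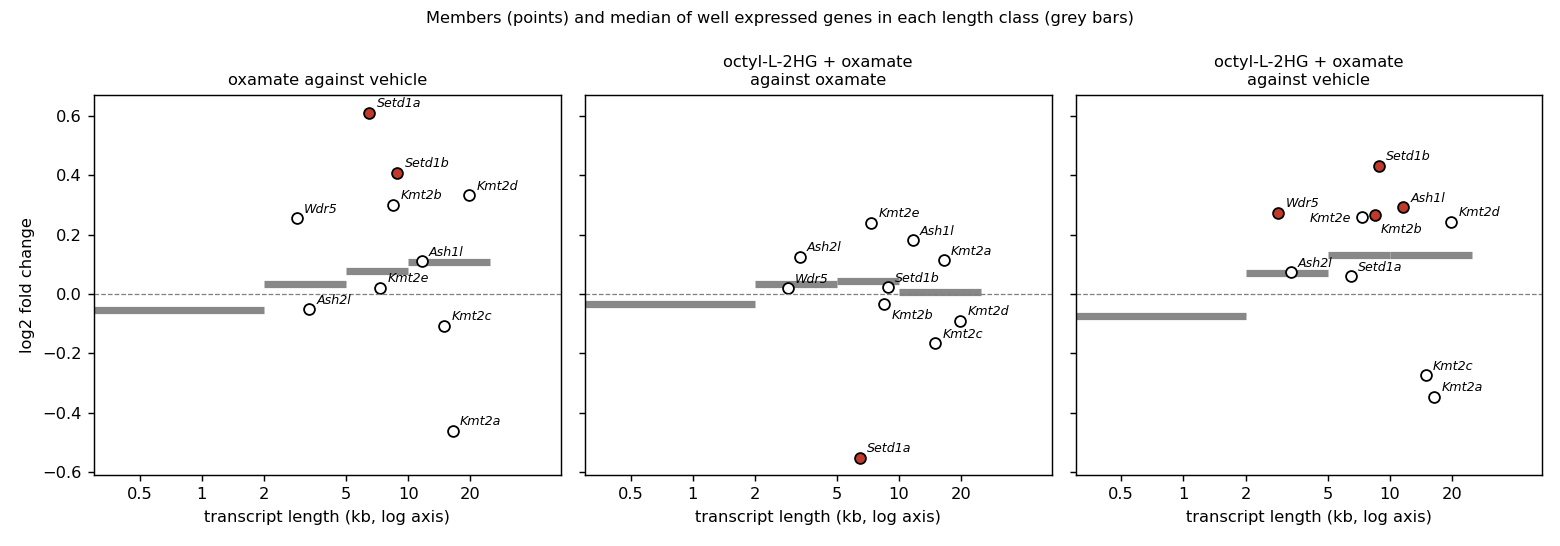
Log2 fold change of the 10 genes (points, filled where called) against transcript length in kb on a log axis, with the median of genes averaging 100 or more normalized counts in each length class as grey bars. Setd1a and Setd1b lie above the medians of long genes with oxamate, and Setd1a lies below them for both compounds against oxamate.

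Reads of overlapping genes could also enter the counts. A stranded kit was used, but the strand setting of the counting is not given in the sources used here. In GENCODE M21, Setd1a shares 3523 exon bases, 51.8% of its exon length, with Gm49388 on the same strand. Gm49388 is listed at 0 reads in all 9 libraries, and reads on the shared bases could have been assigned to neither gene. Kmt2e shares 972 exon bases with Srpk2 on the opposite strand, and Ash1l shares 352 with Dap3, also on the opposite strand. Srpk2 and Dap3 held on average 8231 and 8644 reads per library, more than either member, and neither was called in any comparison. Kmt2a shares 378 exon bases with an antisense gene that held on average 27.7 reads per library, close to the level of Kmt2a itself. Kmt2b, Kmt2d, Setd1b, Ash2l and Wdr5 share exon bases with no annotated gene.

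The other genes of H3K4 methylation were taken from lists by role. Of 12 tested subunits that are particular to 1 or more complexes, 2 rose with oxamate and 0 fell, against 3.97% and 1.22% of all genes tested, and the list's median was 0.07. Hcfc1, a host cell factor found in SETD1, MLL1 and MLL2 complexes, had 558, 505 and 663 normalized counts in vehicle, 873, 793 and 841 in oxamate and 748, 750 and 729 with both compounds. The 3 groups of Hcfc1 did not overlap. It rose by 0.54 with oxamate (adjusted p = 0.000636), was higher than vehicle by 0.35 with both compounds (adjusted p = 0.00855), and differed by -0.20 between the treated groups (adjusted p = 0.171). Bod1, related to the SETD1B subunit BOD1L, rose by 0.29 with oxamate (adjusted p = 0.0450), by a further 0.31 with octyl-L-2HG added (adjusted p = 0.0180) and by 0.59 between vehicle and both compounds (adjusted p = 2.49e-05). The SETD1 subunits Cxxc1 and Wdr82 differed from vehicle by 0.03 and 0.10 with oxamate, and Wdr82 by -0.26 between the treated groups (adjusted p = 0.0711), and none of these passed. Pagr1a was listed at 0 reads.

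Of 5 other H3K4 methyltransferases, Prdm9, Setd7, Smyd1, Smyd2 and Smyd3, 0 were called in any comparison, where 5.19%, 11.2% and 18% of all genes were called in either direction. With 5 genes, and with Setd7 and Prdm9 at only 2.76 and 12.8 normalized counts in vehicle, nothing is read from this count. Of 4 lysine 36 methyltransferases, which share their substrate with ASH1L, Nsd3 rose by 0.35 with oxamate (adjusted p = 0.00722) and was higher than vehicle by 0.27 with both compounds (adjusted p = 0.0148), and Nsd2 was higher than vehicle by 0.26 with both compounds (adjusted p = 0.00466). Of 7 genes grouped here as H3K4 demethylases, enzymes that remove methyl groups from H3K4, 3 rose with oxamate and 0 fell. These were Kdm5c, at 0.49, Kdm2b, at 0.39, and Kdm5b, at 0.33, with adjusted p-values of 0.000645, 0.00274 and 0.00190. Their differences between both compounds and oxamate were -0.20, -0.22 and -0.18, and none passed, with adjusted p-values of 0.106, 0.0685 and 0.0613. The study also names Kdm5c, Kdm2b, Kdm5b and Nsd3 among the affected genes it drew from these libraries, so their direction is not independent evidence either. Nsd3 differed by -0.08 between both compounds and oxamate, which did not pass (adjusted p = 0.325 by edgeR). Kdm5c was also higher than vehicle with both compounds, by 0.28 (adjusted p = 0.0163). Kdm1a was higher with both compounds than with oxamate by 0.25 (adjusted p = 0.0297) and than in vehicle by 0.34 (adjusted p = 0.00202). Of 11 readers of H3K4 methylation, 1 rose with oxamate, Ing1 at 0.27 (adjusted p = 0.0165), and 4 were higher with both compounds than in vehicle, Bptf at 0.41, Taf3 and Phf2 at 0.36 and Ing2 at 0.29, with adjusted p-values of 0.000448, 0.000758, 0.0106 and 0.0127. Bptf was also higher with both compounds than with oxamate, by 0.27 (adjusted p = 0.0250). Over all genes, 3.97% were higher with oxamate and 7.48% with both compounds, each against vehicle, and 15.1% and 28.9% of the well expressed genes from 5 to 10 kb, so nothing particular to these lists is read from their counts. The median log2 fold changes with oxamate were 0.05 for the other H3K4 methyltransferases, 0.11 for the lysine 36 enzymes, 0.13 for the demethylases and 0.15 for the readers, beside -0.01 over all genes tested. Of the members and these lists, only Setd1a was called lower in any of the 3 comparisons by this test, where 1.22%, 8.06% and 10.6% of all genes were called lower.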

How the data were processed

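RNA of round spermatids was sequenced in 9 libraries, 3 in each of 3 groups. The authors trimmed the reads with cutadapt 2.10, aligned them with TopHat 2.1.1 to the mouse genome GRCm39 and counted them per gene with HTSeq 2.01, per the submitters' processing notes. They deposited the whole-number read count per gene and a normalized signal, which is the count divided by the library's DESeq2 size factor (DESeq2 1.36.0). Groups came from the sample titles. Of the 55414 genes listed, 6250 have no values.

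Genes whose counts summed to 10 or more were fitted by edgeR 4.0.16 under R 4.3.3 (TMM scaling, robust quasi-likelihood fit, group as the only term, all 9 libraries sharing the estimate of spread). P-values were adjusted by Benjamini-Hochberg over all 25128 genes and called at 0.05. Standard errors come from the coefficient and its F statistic. Paralogue ratios were compared by exact permutation tests. Alternatives were DESeq2 1.42.0, other scalings and filters, fits of only the groups compared, a residual component as covariate, an offset for transcript length and GC content (splines with 4 degrees of freedom) and each library left out in turn. Transcript lengths came from GENCODE M21, on another build, matched for 99.6% of genes, and promoter windows from RefSeq on GRCm38.p6. The members, gene lists and alternatives were chosen with earlier results of these data known. All 10 members are named, and of the related lists the called genes, at most 5 per list, with Rbbp5, Dpy30, Cxxc1, Wdr82 and the other H3K4 methyltransferases named after their values were seen. Replicate numbers are not shared between groups, so no samples were paired.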

Additional observations from a re-analysis of the deposited data

How the results depend on the processing

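Setd1a and Setd1b kept their calls in every one of the 18 alternatives for the 4 calls made on them, while Kmt2b, Ash1l and Wdr5 kept theirs in 10, 12 and 12. Over all members and comparisons, 467 values kept direction and side of the threshold, 20 lost it, 31 gained it and 19 changed sign. Members called for oxamate against vehicle numbered 2, and were 4 with no filter on low counts, 5 with the residual component and 5 at an unadjusted p under 0.05. Between both compounds and oxamate the 1 call became 2 with no filter, 4 with the length and GC offset, 4 with the residual component and 3 unadjusted. For both compounds against vehicle the 4 calls became 1 with total counts, 2 at a mean count of at least 100, 7 with the residual component, 1 at an adjusted p under 0.01 and 7 unadjusted. Calls over all genes moved too. With the residual component 9.48% of all genes were higher and 6% lower for oxamate against vehicle, 9.52% and 13.2% for both compounds against oxamate, and 14.2% and 15.7% for both compounds against vehicle. With total counts 4.9% of all genes were higher for both compounds against vehicle, and at a mean count of at least 100 it was 14.4%. At an adjusted p under 0.01 the shares for both compounds against vehicle were 4.08% higher and 6.29% lower. With no filter the shares were 3.21% higher and 1.14% lower for oxamate against vehicle, and 3.85% and 4.85% for both compounds against oxamate. For any difference the 5 calls, beside 19.8% of all genes, became 2 beside 19.6% with total counts, 8 beside 35% with the residual component and 2 beside 11% at 0.01. Leaving out each library in turn gave 2 to 4 (4 without oxamate library 5), 1 to 2 (2 without oxamate library 4), 1 to 7 (7 without oxamate library 4, 1 without libraries 7, 8 or 9) and 2 to 7 (2 without vehicle library 2 or libraries 7 or 8) for these counts. For any difference, the share of all genes called was 15.5% without vehicle library 2, and 12.7% and 13% without libraries 7 and 8. Without oxamate library 4 this share was 29.7%. The median of the members for both compounds against oxamate was 0.021 and became -0.023 with total counts, and -0.019 to 0.066 when a library was left out. With the length and GC offset the median for oxamate against vehicle moved from 0.18 to 0.094, and that for both compounds against vehicle from 0.25 to 0.16. Sign changes were all of differences that were not called. With total counts Setd1b and Wdr5 became -0.022 and -0.024 for both compounds against oxamate, and Setd1a -0.0030 for both compounds against vehicle. With the length and GC offset Kmt2e became -0.044 for oxamate against vehicle, Kmt2b 0.00048 for both compounds against oxamate and Setd1a -0.047 for both compounds against vehicle, and with no filter Kmt2b became 0.0093. With libraries left out, the ranges that crossed 0 were -0.20 to 0.0060 for Kmt2c and -0.10 to 0.11 for Kmt2e for oxamate against vehicle. Between both compounds and oxamate they were -0.096 to 0.30 for Kmt2a, -0.096 to 0.062 for Kmt2b, -0.057 to 0.079 for Setd1b and -0.036 to 0.12 for Wdr5, and for both compounds against vehicle -0.010 to 0.12 for Setd1a. The cause of these changes was not tested. Scaling also moved the split of all genes. For both compounds against oxamate it was 798 higher and 2025 lower, against 421 and 2516 with total counts, and 1106 and 1831 with DESeq2 size factors. For both compounds against vehicle it was 1879 and 2655, 1231 and 3367, and 2206 and 2493. No paired analysis was possible because the replicate numbers run from 1 to 9 without being shared between groups. Depth limits Kmt2a, at 18 to 49 reads a library. Groups of 3 libraries allow no exact permutation p below 0.1.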
